A study of Mus musculus with 6 samples.

Results

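Cd8 T cells of the inflamed mouse joint were picked from a table of 32953 single cells by their own messenger RNA. A cell was taken when it held at least 2 unique molecular identifiers (UMIs, tags that mark single RNA molecules) of Cd3d, Cd3e and Cd3g together, at least 1 of Cd8a and Cd8b1 together, and 0 of Cd4, of Foxp3 and of Siglech. This rule found 297 cells, or 0.901% of all cells (95% Wilson interval 0.805% to 1.01%). The cells came from CD45+ leukocytes sorted from digested joints of male, young adult C57BL/6 mice with antigen-induced arthritis. Every mouse had been immunized with 10 μg of methylated bovine serum albumin (mBSA) in complete Freund's adjuvant and challenged with 100 μg of mBSA in the knee on day 21, and the joints were taken at the peak of inflammation. From the challenge on, the mice of 2 samples were injected intraperitoneally with the vehicle PBS and those of 4 samples with 300 μg of PEPITEM, a peptide cut from the protein 14-3-3 zeta that limits the passage of T cells through vessel walls. The adjuvant and the antigen were thus shared by both groups, and none of these samples came from a joint without arthritis.

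The deposited table pools all samples. The barcodes carry a library number from 1 to 6, and no source used here states which labelled sample a number stands for. Vehicle and PEPITEM were therefore not compared, and the 6 libraries are described by their lowest, median and highest values in this order. What could be tested was how the Cd8 T cells of a library differed from other lymphocytes of the same library, because the unknown treatment then enters both sides.

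CD8 T cells recognise peptides on class I major histocompatibility molecules with an alpha-beta T cell receptor, and the CD8 coreceptor, a pair of CD8 alpha and beta chains, binds the same molecule. Naive CD8 T cells circulate through lymph nodes with the help of the chemokine receptor Ccr7. After activation they make chemokines such as Ccl5, granule proteins such as granzymes and perforin, and receptors of the killer cell lectin-like family that they share with natural killer (NK) cells. In inflamed joints CD8 T cells are found beside more numerous myeloid cells.

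Each library held between 42 and 59 Cd8 T cells. Their share of the cells of a library was 0.556%, 1.05% and 1.44%, and the plot of members by library shows that libraries 5 and 6 had the smallest shares and library 3 the largest. A median of 10761 UMIs and 2945 genes was counted per Cd8 T cell (lowest 1036, highest 65618 UMIs), against 11376 UMIs per cell over the whole table, and the members summed to between 462059 and 814941 UMIs per library. UMIs were summed per library and population, and levels are given as counts per 1000000 UMIs of that sum (CPM).

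**Figure D1:**
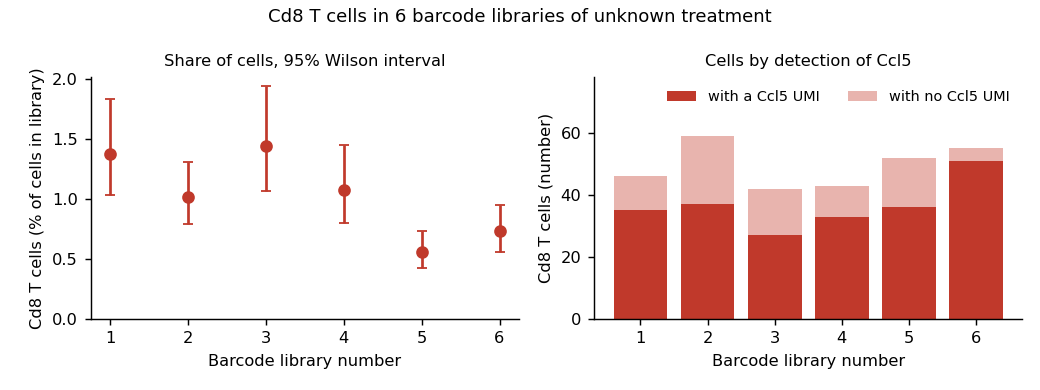
The left panel shows the share of the cells of each barcode library that were Cd8 T cells, in percent, with 95% Wilson intervals that cover counting error only. The right panel shows the number of Cd8 T cells with and without a UMI of Ccl5, which is positive in 51 of 55 cells of library 6 and in 37 of 59 cells of library 2.

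The label was checked against genes that the rule did not use. Of the 297 cells, 296 held RNA of the constant part of the alpha or beta receptor chain (Trac, Trbc1 or Trbc2). The delta chain gene Trdc was found in 8 cells and Ncr1, which encodes an NK cell receptor, in 2. Klrb1c, another NK cell receptor gene, was found in 51 cells or 17.2% (interval 13.3% to 21.9%). UMIs of the gamma chain genes Tcrg-C1, Tcrg-C2 and Tcrg-C4 were present in 84 cells. Nkg7, which encodes a membrane protein of cytotoxic granules, was found in 92.9% of the members (interval 89.4% to 95.3%) and Ccl5 in 73.7% (interval 68.5% to 78.4%). In 13692 neutrophil-type cells of the same table, which should lack both genes, the shares were 9.76% and 3.35% at a median of 11015 UMIs. With each cell thinned to 2000 UMIs, Nkg7 was found in 69.6% of the members and 4.65% of a subset of 1011 neutrophil-type cells.

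Of the members, 186 held both Cd8a and Cd8b1, 72 held Cd8a and no Cd8b1, and 39 held Cd8b1 and no Cd8a. Ccl5 was found in 69.4%, 93.1% and 59.0% of these cells in this order. At the edge of the rule, the 50 cells with a single CD8 UMI held Ccl5 in 84.0% of cells and Trac in 90.0%. Just outside it, 766 cells with no CD8 UMI that met the rest of the rule held Ccl5 in 43.7%, Trac in 42.3% and Lyz2, which encodes the lysozyme of myeloid cells, in 35.1%. Of the genes of the rule, Cd3d had 497, 569.6 and 631 CPM over the libraries, Cd8a 191, 221 and 344 CPM and Cd8b1 228, 305 and 545 CPM. Another 17 cells were left out for holding Cd4 beside CD8, and 5 for holding Foxp3. For the other edge of the rule, 2 members had a Cd3 sum of 2, and 4 cells outside had a sum of 1.

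More than 1 UMI of other cell types' genes was found in few members. Of the 297 cells, 5 held more than 1 UMI of the neutrophil genes S100a8, S100a9 and Ngp, 11 of the macrophage genes C1qa, C1qb and Csf1r, and 7 of B cell genes, Cd79a and Cd79b among them, which came to 20 cells or 6.73% in all. All 3192 S100a8 UMIs of the members were in 5 cells, and 1 cell of library 1 held 75.3% of the UMIs of Cd74, the invariant chain of class II molecules. All UMIs of the mast cell protease gene Mcpt4 were in 1 cell of library 2. Barcodes that occurred in more than 1 library belonged to 2 members, and no barcode was shared by 2 members.

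Apart from ribosomal protein and mitochondrial genes, the genes with the most UMIs in Cd8 T cells were Malat1, Tmsb4x, Tpt1, Gm42418, Actb, Eef1a1, Tmsb10, Fau and Ccl5, followed by Ptma, B2m, Gnb2l1, Cd52, Dennd4a and Ppia. Ccl5, a chemokine that attracts T cells and monocytes, was the only gene among these 15 that was found in under 97% of the members. Its UMIs were spread over many cells, as the 219 positive cells held a median of 38 and a highest of 397 Ccl5 UMIs and 12 of them held a single one. UMIs of Gzma and Gzmb were concentrated instead. The 5 cells with the most Gzma, which encodes granzyme A, held 71.3% of the 560 UMIs of this gene, and those with the most Gzmb, for granzyme B, held 51.3% of 1272. For the granzyme genes Gzmk and Gzmm, with 96 and 146 UMIs, the top 5 cells held 32.3% and 37.0%. The level of Gzmb was 65.0, 175 and 1471 CPM over the libraries and that of Gzma 4.33, 52.4 and 667 CPM, with the highest value of both in library 4. Perforin (Prf1), the pore-forming granule protein, stood at 6.95, 14.9 and 22.9 CPM, and Klrg1, a receptor of terminally differentiated effector cells, at 0, 3.11 and 9.82 CPM.

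To place these levels, the members were set beside 3 lymphocyte populations of the same libraries that were picked by like rules. Conventional Cd4 T cells (221 cells) held at least 2 Cd3 UMIs, at least 1 of Cd4 and none of Cd8a, Cd8b1, Foxp3 or Siglech. Trdc T cells (198 cells) held at least 2 Cd3 UMIs, at least 1 of Trdc and none of Cd4 or CD8. NK cells (264 cells) held at least 2 UMIs of Ncr1 and Klrb1c and no Cd3 or Cd4. Their median depths were 8446, 10001.5 and 8317.5 UMIs per cell. Ccl5 was found in 20.4% of the Cd4 T cells, 51.5% of the Trdc T cells and 90.2% of the NK cells. With each cell thinned to 2000 UMIs, the shares were 65.5% for Cd8 T cells (1 shallower cell left out), 11.8% for Cd4 T cells, 48.2% for Trdc T cells and 84.5% for NK cells, against 1.98% for the subset of 1011 neutrophil-type cells. The members, 0.901% of the cells, held 17.4% of all Ccl5 UMIs of the table and between 9.22% and 21.0% of those of a library, and NK cells held 23.4% of the table. Larger shares of the UMIs of the whole table were found for Dapl1 (77.6%), a gene of naive lymphocytes, and Gzmk (60.4%), which encodes granzyme K.

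**Figure D2:**
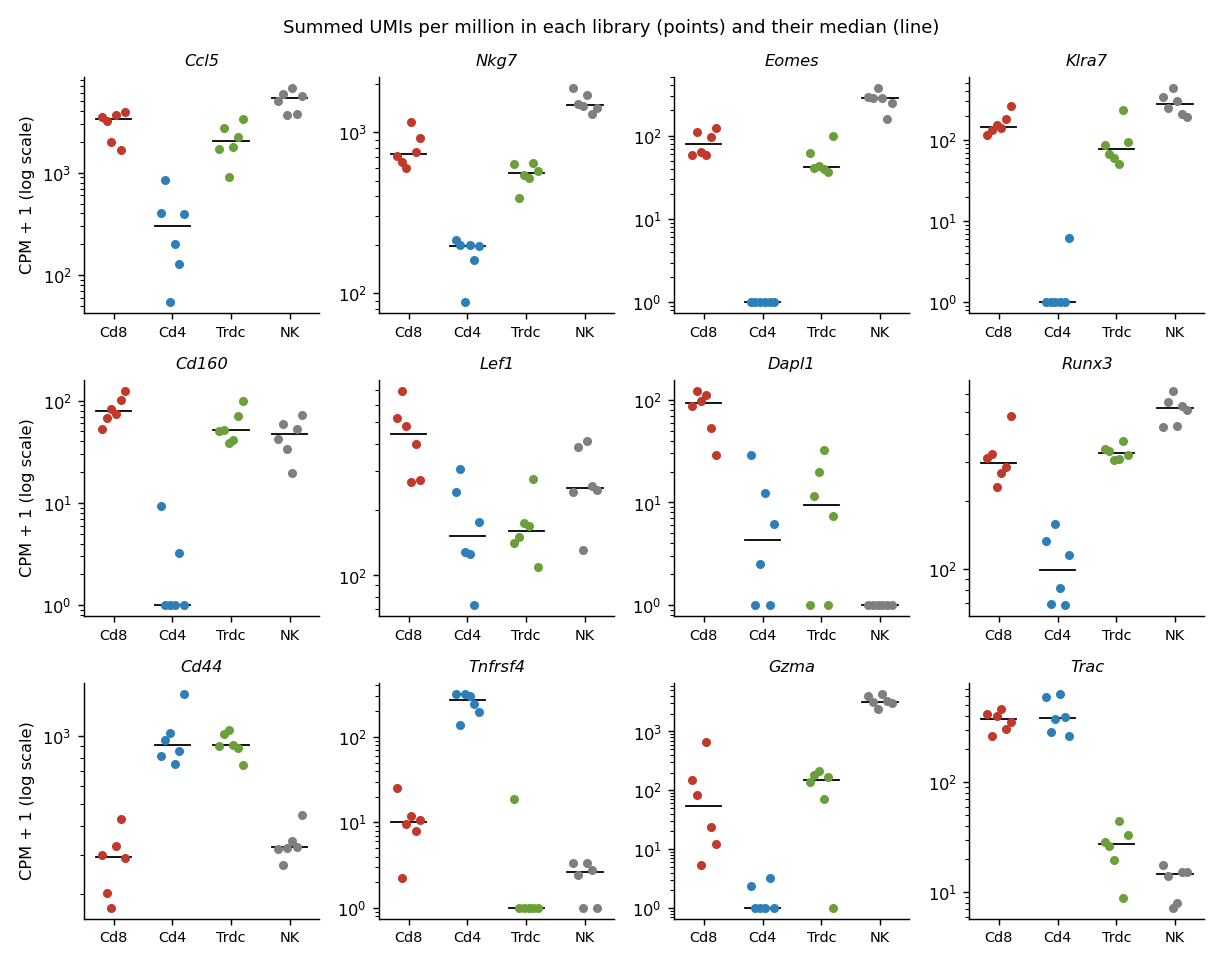
Each panel shows 1 gene, with the CPM of a population in each of 6 libraries as points, their median as a line, and 1 added to each value for the log axis. Eomes has no UMI in Cd4 T cells and Dapl1 none in NK cells, while the Cd44 points of Cd8 T cells lie below all those of Cd4 and Trdc T cells.

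Compared to conventional Cd4 T cells, Cd8 T cells were higher in 6 of 9 granule genes and in 9 of 14 genes of naive and lymph node homing cells. Levels of killer cell receptor genes were mostly above, and those of helper cell genes mostly below, the levels in Cd4 T cells, which is a description only for the reasons given with each list. The counts summed per library and population were compared with edgeR's quasi-likelihood test, with the library as a block. Of 6366 genes tested, 987 were called at a Benjamini-Hochberg adjusted p under 0.05, which is 15.5%, with 528 higher (8.29%) and 459 lower (7.21%). Ribosomal protein genes made up 77 of the higher and 0 of the lower calls, with a median log2 fold change of 0.64 over 94 such genes, and their share of all UMIs was 27.0% in Cd8 and 17.9% in Cd4 T cells. Because the block removes the level that both populations of a library share, the p-values rest on how their difference varied from library to library. Whether each library is 1 mouse is not stated beyond the word replicate.

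Of 12 killer cell receptor genes tested, 11 were higher and 0 lower, with a median log2 fold change of 3.32 where the median of all genes was 0.00. Klra1, Klra6, Klra7, Cd160 and Crtam had at most 11 UMIs in Cd4 T cells and passed the filter on low counts through the Cd8 side, so their direction, and with it this count and median, is a description only. Klra7, which encodes a receptor of the Ly49 family (Ly49G), had 113, 145 and 265 CPM in Cd8 T cells and 0, 0 and 5.19 CPM in Cd4 T cells. The Klra7 UMIs numbered 596 against 2, a 228-fold ratio of CPM with a 95% counting interval of 62.9 to 1889. All 6 libraries of Cd8 T cells were above all 6 of Cd4 T cells. For Cd160, a receptor of the immunoglobulin family, the values were 52.0, 77.9 and 124 CPM in Cd8 T cells and 0, 0 and 8.32 CPM in Cd4 T cells, with a log2 fold change of 5.05. Klre1, Klra1 and Crtam, an adhesion receptor of activated killer cells, had log2 fold changes of 4.38, 5.02 and 3.93. With 20 UMIs of Klre1 in Cd4 T cells, its direction too is a description only. Klra6 had 159 UMIs in Cd8 T cells and 1 in Cd4 T cells, a 122-fold ratio of CPM with a counting interval of 21.5 to 4840. The Klra genes lie in 1 cluster and resemble each other, so reads may be split among them and the level of a single one is uncertain. The natural killer receptor chain Klrd1 (CD94) had a log2 fold change of 2.72 (SE 0.354, adjusted p = 0.00141), and its partner chains Klrc1, Klrc2 and the activating receptor Klrk1 (NKG2D) had 1.19, 1.76 and 1.39. Cd226 was the member not called, with 0.07 (SE 0.272, adjusted p = 0.909).

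Among 9 cytotoxic granule genes, 6 were higher and 1 lower. Nkg7 (ENSMUSG00000004612, chr7:43437073-43438249 in GRCm38) had 599, 735 and 1156 CPM in Cd8 T cells and 86.9, 196 and 214 CPM in Cd4 T cells, and its log2 fold change was 2.30 (SE 0.155, adjusted p = 4.27e-07). The ranges of the libraries did not overlap, which was so for 7.08% of the genes tested. The log2 fold change was 2.35 (SE 0.270, adjusted p = 0.000204) for Ctsw (cathepsin W) and 2.30 (SE 0.313, adjusted p = 0.000308) for Cst7 (cystatin F), a protease inhibitor of granules. Gzmb was higher, with 65.0, 175 and 1471 CPM against 0, 24.6 and 187 CPM and a log2 fold change of 2.64 (SE 0.497, adjusted p = 0.0171), and this call was lost without library 3 (adjusted p = 0.0584) and without library 6 (adjusted p = 0.0624). Srgn, the proteoglycan serglycin that packs granule proteins, was lower, with 859, 1132 and 1466 CPM against 1518, 1938 and 2126 CPM and a log2 fold change of -0.66.

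Ccl5 itself (ENSMUSG00000035042, chr11:83525778-83530518) had 1682, 3369 and 3904 CPM in Cd8 T cells and 53.4, 298 and 852 CPM in Cd4 T cells. The lowest library of Cd8 T cells was thus above the highest of Cd4 T cells, and the log2 fold change was 3.63 (SE 0.449, adjusted p = 0.00341). Among 10 effector chemokine and cytokine genes edgeR called 1 higher, Ccl5, and 1 lower, Lta (lymphotoxin alpha), while DESeq2 called 2 higher and 1 lower. The call of Lta was lost without a filter on low counts (adjusted p = 0.108) and without library 1, 5 or 6. Xcl1, a chemokine for cross-presenting dendritic cells, had 208, 548 and 861 CPM against 0, 14.0 and 158 CPM, ranges that did not overlap, yet its log2 fold change of 3.92 did not pass (SE 1.16, adjusted p = 0.0901). Ifng, for interferon gamma, was at 6.49, 117 and 231 CPM in Cd8 and 3.05, 61.9 and 197 CPM in Cd4 T cells (adjusted p = 0.494).

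Of 14 transcription factors of the CD8 lineage, 3 were higher and 2 lower. Eomes (ENSMUSG00000032446, chr9:118478212-118486132), a T-box factor of memory and effector CD8 T cells, had 57.3, 79.2 and 123 CPM in Cd8 T cells. It had 0 UMIs in the Cd4 T cells, so it was at least 80.9-fold higher against a floor of 3 UMIs over that population. It passed the filter on low counts through the Cd8 side, so its direction is a description only. The other 2 higher calls were those of Runx3 and Tbx21. Runx3, which silences Cd4 in CD8 T cells, had 232, 297 and 482 CPM against 67.6, 97.4 and 157 CPM, a log2 fold change of 1.71 (SE 0.206, adjusted p = 0.000168). Tbx21, for the T-box factor T-bet, had a log2 fold change of 1.18 (SE 0.196, adjusted p = 0.00101). Lower were Bhlhe40 at -1.43 and Irf4 at -0.92. Ikzf2, for the zinc finger factor Helios, had 308, 774 and 1859 CPM against 23.0, 299.6 and 631 CPM and did not pass (adjusted p = 0.0682).

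**Figure D3:**
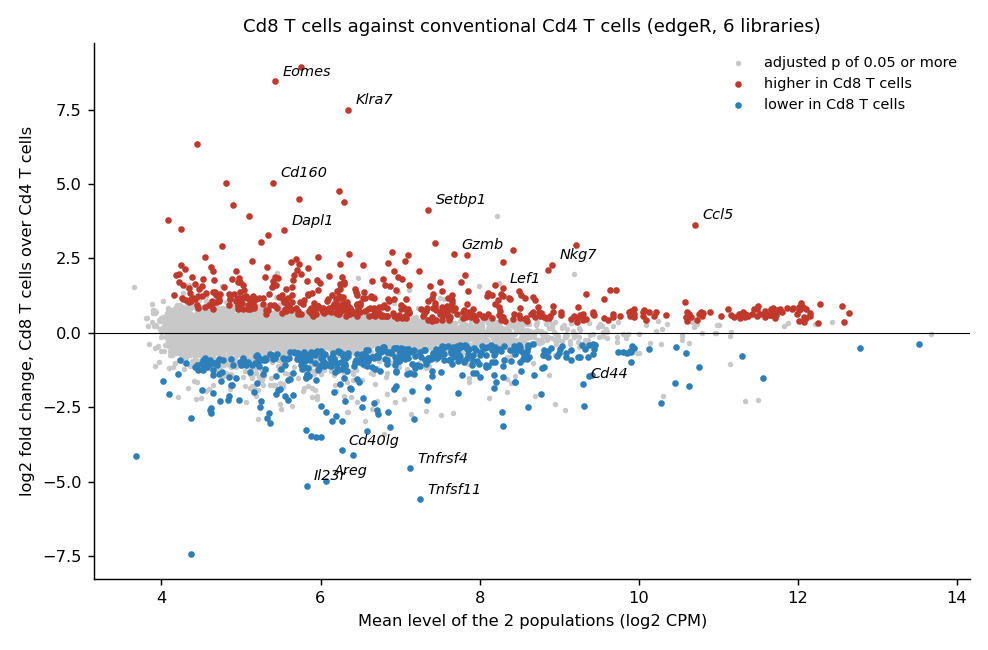
Each point is 1 of the genes tested between Cd8 and conventional Cd4 T cells, with the mean level of both populations in log2 CPM on the x axis and the log2 fold change on the y axis, positive where Cd8 T cells were higher. Coloured points passed the adjusted p threshold (528 higher, 459 lower), and named genes are described in the text.

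Genes of naive cells and of lymph node homing were higher in 9 of 14 cases and lower in 0, with a median log2 fold change of 0.85. With each cell thinned to 2000 UMIs the calls of Tcf7, Satb1 and Bach2 were lost (adjusted p = 0.302, 0.0703 and 0.108), that of Bach2 was also lost without any of 4 libraries, and that of Ccr7 without the library block (adjusted p = 0.184). Lef1, a factor of the Wnt pathway that maintains naive T cells, had 267, 441 and 697 CPM in Cd8 and 72.2, 150.3 and 304 CPM in Cd4 T cells, a log2 fold change of 1.49 (SE 0.205, adjusted p = 0.000513). Ccr7 and Klf2, a factor that keeps naive cells in circulation, had log2 fold changes of 1.13 and 1.10. For these 3 genes the ranges of the populations overlapped. Dapl1 had 27.8, 91.5 and 121 CPM against 0, 3.36 and 27.7 CPM, with no overlap and a log2 fold change of 3.45 (SE 0.620, adjusted p = 0.00852). It had 27 UMIs in Cd4 T cells against 308 and passed the filter on low counts through the Cd8 side. The direction of Dapl1, and its part in the count of 9, is a description only. Il7r, the interleukin 7 receptor, was not called, with -0.50 (SE 0.187, adjusted p = 0.0901).

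Genes of memory cells and tissue homing went both ways, with 4 of 19 higher and 7 lower. Cd44, an adhesion molecule of antigen-experienced T cells, had 173, 293 and 431 CPM in Cd8 and 754, 907 and 1535 CPM in Cd4 T cells, a log2 fold change of -1.71 (SE 0.208, adjusted p = 0.000284), and each Cd8 value was below each Cd4 value. The chemokine receptor gene Cxcr6 had a log2 fold change of -1.37, the calcium-binding protein gene S100a4 of -2.36 and the integrin gene Itgb1 of -0.76. Higher were Ly6c2, for the surface protein Ly6C, with 926, 993 and 1205 CPM against 35.1, 185 and 381 CPM and a log2 fold change of 2.94 (SE 0.520, adjusted p = 0.0164), and the adhesion genes Itga4 and Selplg. Without library 1 the call of Ly6c2 was lost (adjusted p = 0.0512). Ly6c2 has a near-identical neighbour, Ly6c1, so its counts are uncertain.

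Helper cell genes went the other way. Of 10 tested, 8 were lower, 1 was higher and 1 was not called. The other side had been chosen by Cd4, and genes such as Tnfsf11, Cd40lg and Tnfrsf4, with 17, 29 and 37 UMIs in the members against 842, 411 and 756, passed the filter through it, so this count is a description only. Tnfrsf4, for the costimulatory receptor OX40, had 1.23, 9.23 and 24.5 CPM in Cd8 and 137, 269 and 317 CPM in Cd4 T cells, a log2 fold change of -4.55 (SE 0.258, adjusted p = 2.04e-07). Tnfsf11, for the osteoclast factor RANKL, had 0, 2.66 and 17.3 CPM against 45.7, 252 and 451 CPM, a log2 fold change of -5.59 (SE 0.571, adjusted p = 0.000955). Cd40lg, through which helper cells activate B cells, followed with -3.94, Tnfsf8 (CD30 ligand) with -3.14, Maf with -2.91 and Il2ra with -2.58. The libraries of these 6 genes did not overlap. The single higher gene was Il6st, the signalling chain of the interleukin 6 receptor, at 1.66 (SE 0.202, adjusted p = 0.00011). Outside that list, Il23r and Areg (amphiregulin) were lower, with log2 fold changes of -5.13 and -4.97. Their UMIs numbered 10 and 14 in the members against 312 and 368, so their direction too is a description only.

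T cell receptor and signalling genes went both ways, with 5 of 20 higher, 6 lower and a median log2 fold change of 0.05. DESeq2 called 4 higher and 2 lower. The call of Cd247 among the higher genes, and those of Cd2, Cd6, Cd28 and Lcp2 among the lower, were lost in DESeq2. Each of these calls was also lost without library 4. Trac had 260.1, 374 and 459 CPM against 262, 381 and 636 CPM (adjusted p = 0.801). Txk, a kinase of the Tec family, was higher at 2.37 (SE 0.143, adjusted p = 2.07e-07), as was the costimulatory receptor Cd27 at 1.75 (SE 0.216, adjusted p = 0.000124), while Cd5, an inhibitor of receptor signals, was lower at -0.84 (SE 0.162, adjusted p = 0.00261). Of the checkpoint receptors 0 of 8 were higher and 3 lower, among them Icos (-1.42) and Ctla4 (-1.20). Interferon response genes were lower in 7 of 14 cases and higher in 0, with Igtp, for an interferon-induced GTPase, at -1.03 (SE 0.236, adjusted p = 0.00806). Of these 7 calls, that of Irgm1 was lost without any of 5 libraries and that of Isg20 without any of 4, both also in DESeq2, and that of Isg15 without cells holding RNA of other lineages (adjusted p = 0.0733). Immediate-early genes were lower in 4 of 15 cases, and of these calls Junb and Nfkbia were lost without the cells holding other-lineage RNA (adjusted p = 0.234 and 0.0809). Of 13 cell cycle genes edgeR called 0 (1 lower at an unadjusted p under 0.05) and DESeq2 called 1 lower. Beside these values, the 9 neutrophil genes summed to 2154 CPM in Cd8 and 11590 CPM in Cd4 T cells, led by S100a9, with up to 5115 and 35142 CPM in library 5. Of 5 neutrophil genes tested edgeR called 0 (1 lower at an unadjusted p under 0.05) and DESeq2 1 lower, and of 8 monocyte and macrophage genes edgeR called 0 (1 lower at an unadjusted p under 0.05) and DESeq2 4 lower. The part of this RNA in the results was not tested. Without the 20 Cd8 and 29 Cd4 T cells that held RNA of other lineages 1175 genes were called, 850 of them among the 987, and the list genes that lost their call were Cd247, Isg15, Junb and Nfkbia.

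Further genes stood out by fold change. Setbp1, which encodes a DNA-binding protein, had 96.3, 245 and 735 CPM in Cd8 and 2.88, 14.9 and 51.9 CPM in Cd4 T cells, a log2 fold change of 4.14 (SE 0.203, adjusted p = 6.47e-08), and its highest values in both populations were in library 6. Bend4 and Samd3 had log2 fold changes of 4.78 and 4.49. Auts2 had 4.30. Bend4, Samd3 and Auts2 had 17, 12 and 6 UMIs in Cd4 T cells and passed the filter through the Cd8 side. Their direction is a description only. Among the lower genes were Il1r1 (-4.12), Tbc1d4 (-3.49), AA467197 (-3.47), Plcb4 (-3.28), Tmem176b (-3.30) and Tmem176a (-3.15). Il1r1, Tbc1d4, AA467197 and Plcb4 had 33, 36, 32 and 35 UMIs in the members and passed the filter through the Cd4 side. The direction of these genes too is a description only. Of the 86 calls among genes of the lists, 69 were kept without each library in turn, and of the other 17 the call of 1 rested on a single library and those of 16 were lost without any 1 of several.

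The promoters of Nkg7 and Gzmb are shown with Runx and T-box motifs in capitals. Whether Runx3, Tbx21 or Eomes act on these genes was not tested. Sequences run 5′ to 3′ along the gene and are those of RefSeq for GRCm38.p6, from 250 bases before to 50 after the start. Capitals mark the Runx core TGTGGT or its complement ACCACA and the T-box element TCACAC or its complement GTGTGA. These motifs do not overlap each other here.
Nkg7, chr7:43436888-43437187, plus strand: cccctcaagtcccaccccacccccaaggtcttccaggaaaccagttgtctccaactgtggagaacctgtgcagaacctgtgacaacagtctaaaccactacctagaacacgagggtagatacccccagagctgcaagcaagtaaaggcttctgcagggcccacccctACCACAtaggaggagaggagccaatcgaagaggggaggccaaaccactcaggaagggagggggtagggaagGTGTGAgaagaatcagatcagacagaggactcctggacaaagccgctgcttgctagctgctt
Gzmb, chr14:56262285-56262584, minus strand: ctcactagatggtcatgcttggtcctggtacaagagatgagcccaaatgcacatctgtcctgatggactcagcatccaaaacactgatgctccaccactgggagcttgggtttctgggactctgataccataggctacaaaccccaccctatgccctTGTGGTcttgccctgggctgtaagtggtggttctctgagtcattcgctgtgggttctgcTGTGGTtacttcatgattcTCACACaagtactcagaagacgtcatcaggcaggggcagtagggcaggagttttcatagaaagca

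The window of Nkg7 held 1 Runx core and 1 T-box element, and that of Gzmb held 2 Runx cores and 1 T-box element. Of the 27 genes of the granule and receptor lists 22 had such a window (Cd226, Crtam, Ctsw, Klrd1 and Klrg1 had none), and 15 of them or 68.2% held a Runx core and 8 or 36.4% a T-box element. Over all 27025 genes with a window the shares were 18.9% and 16.4%. Several of the 22 are members of 1 gene family with like promoters, so they are not independent, and a match of letters does not show that a factor binds.

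Compared to Trdc T cells, the other T cells of the joint with much Ccl5, the members were higher in T cell receptor and signalling genes and in part of the naive and homing genes. Of 5843 genes tested 633 were called (10.8%), with 302 higher (5.17%) and 331 lower (5.66%), and 76 of the higher calls were ribosomal protein genes. Nkg7 had 599, 735 and 1156 CPM in Cd8 and 391, 558 and 641 CPM in Trdc T cells, a log2 fold change of 0.60 (SE 0.138, adjusted p = 0.01) with overlapping ranges. Ccl5, at 1682, 3369 and 3904 CPM against 909.9, 2017 and 3318 CPM, did not pass, with a log2 fold change of 0.63 (SE 0.248, adjusted p = 0.208). Killer receptors were higher in 2 of 12 cases, Klra7 and Cd160, and lower in 0, and each of these 2 calls was lost without at least 5 of the 6 libraries in turn. Of 9 granule genes edgeR called 2 higher, Nkg7 and Fasl, and 2 lower, Srgn and Serpinb9, and DESeq2 1 higher and 2 lower. The call of Fasl was lost in DESeq2 and without library 2 or 6, and that of Srgn without library 1, 2 or 3, and both without the block. Of 9 effector genes edgeR called 0 higher (2 at an unadjusted p under 0.05) and 1 lower, Tnf, and DESeq2 1 higher and 0 lower. The call of Tnf was also lost without the block and without library 1, 3, 5 or 6. Xcl1 had 208, 548 and 861 CPM against 311, 756 and 942 CPM.

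The alpha-beta receptor set the members apart from Trdc T cells. Trac had 260.1, 374 and 459 CPM against 7.82, 26.3 and 43.1 CPM, a log2 fold change of 3.86 (SE 0.191, adjusted p = 1.06e-08), and Themis, which tunes receptor signals during thymic selection, had 394, 587 and 754 CPM against 33.5, 44.4 and 134 CPM, a log2 fold change of 3.46 (SE 0.184, adjusted p = 2.58e-08). In both cases no libraries overlapped, which held for 4.76% of the genes tested. Cd5, Cd6 and Cd28 had log2 fold changes of 2.25, 2.17 and 1.68, and 13 of 20 receptor and signalling genes were higher and 1 lower. Of 14 naive and homing genes 7 were higher and 0 lower, with Lef1 at 1.44 (SE 0.225, adjusted p = 0.00219) and S1pr1, the receptor for exit from tissue along sphingosine 1-phosphate, at 1.08 (SE 0.238, adjusted p = 0.00892). The checkpoint receptor genes Ctla4 and Btla were higher at 2.97 and 1.95, and Pdcd1 was lower at -1.92. Ctla4, Btla and Dapl1, which is among the 7 naive and homing genes, had 28, 35 and 28 UMIs in Trdc T cells. They passed the filter on low counts through the Cd8 side, so their direction is a description only.

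Of 15 gamma-delta and innate-like T cell genes, 11 passed the filter on low counts. Their level in Trdc T cells carried them past it and that side had been chosen by Trdc, so their shared direction is a description only. Il23r had 0, 0.764 and 10.8 CPM in Cd8 and 275, 399.8 and 596 CPM in Trdc T cells, a log2 fold change of -7.00 (SE 0.383, adjusted p = 1.56e-06). Il17a, for interleukin 17A, had 0, 5.72 and 17.4 CPM against 25.1, 196 and 556 CPM, a log2 fold change of -4.86 (SE 0.676, adjusted p = 0.0071), and no library of the members reached the lowest of Trdc T cells. Zbtb16, for the factor PLZF of innate-like T cells, and the kinase gene Blk had -4.20 and -6.17. Trdv4, a variable segment of the delta chain, had 0 UMIs in the members and 385 in Trdc T cells, at least 197-fold lower against a floor of 3 UMIs. Cd44 was lower in the members than in Trdc T cells too, at -1.65 (SE 0.182, adjusted p = 0.000129). Of 12 interferon response genes edgeR called 0 (1 lower at an unadjusted p under 0.05) and DESeq2 0, and 5 of 15 immediate-early genes were lower, among them Fosb at -1.35. The calls of Jund and Nfkbia were lost without library 1 and those of Jund and Nr4a1 without library 6. Without the block the calls of Jund, Nfkbia and Nr4a1 were lost. The neutrophil genes summed to 9939 CPM in Trdc T cells, with 35372 CPM in library 5. Without cells holding RNA of other lineages 700 genes were called, of which 555 were shared with the 633. Of 65 calls among list genes, 44 were kept without each library in turn.

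Compared to NK cells, the members were lower in part of the granule genes. Levels of T cell genes and of part of the naive cell genes lay above those in NK cells. This is a description only, for the reasons given with each list. Of 6368 genes tested between members and NK cells 1140 were called (17.9%), with 591 higher (9.28%) and 549 lower (8.62%), and 77 of the higher calls were ribosomal protein genes. Cytotoxic granule genes were lower in 5 of 10 cases and higher in 0. Gzma had 4.33, 52.4 and 667 CPM in Cd8 T cells and 2363, 3187 and 4386 CPM in NK cells, a log2 fold change of -5.43 (SE 0.920, adjusted p = 0.0139). Prf1 had 6.95, 14.9 and 22.9 CPM against 127, 152 and 274 CPM, a log2 fold change of -3.29 (SE 0.188, adjusted p = 2.5e-09), and Nkg7 599, 735 and 1156 CPM against 1305, 1472 and 1885 CPM, a log2 fold change of -0.86 (SE 0.115, adjusted p = 4.11e-05). In each of these 3 genes the highest Cd8 library was below the lowest NK library, as was so in either direction for 8.72% of the genes tested. With 58 UMIs in the members, Prf1 passed the filter on low counts through the NK side. The direction of Prf1, and its part in the count of 5, is a description only. Gzmb did not pass, with 65.0, 175 and 1471 CPM against 357, 544 and 823 CPM and library 4 of the members above all NK libraries (adjusted p = 0.215).

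Ccl5 was lower in the members than in NK cells, with a log2 fold change of -0.68 (SE 0.0983, adjusted p = 9.28e-05) and overlapping ranges (1682, 3369 and 3904 CPM against 3615, 5305 and 6727 CPM). Without the library block its call was lost (adjusted p = 0.0746). Ccl3 and Ccl4, neighbouring chemokine genes of like sequence, were lower at -2.07 and -2.12, and each call was lost without at least 4 of the 6 libraries in turn. Tnf and Ltb were higher, at 1.19 and 2.02 (SE 0.199, adjusted p = 3.92e-06). The T-box genes Eomes and Tbx21 were lower, at -1.55 (SE 0.230, adjusted p = 0.000482) and -1.38. Higher among the 14 transcription factors were Ikzf2 at 1.81 (SE 0.176, adjusted p = 6.81e-06), Irf4, Batf and Tox. Of 14 killer receptors 4 were higher (Klra6, Cd160, Cd226, Crtam) and 6 lower, with Klra6 at 3.02 (SE 0.363, adjusted p = 1.29e-05), Klre1 at -1.79 (SE 0.291, adjusted p = 0.00356) and Klrg1 at -3.10 (SE 0.435, adjusted p = 8.71e-05). Klra8, for the receptor Ly49H, had 0 UMIs in the members and 1276 in NK cells, at least 523-fold lower, and Klra4, which encodes Ly49D, had 1 UMI against 1270, a ratio of 0.00064 (interval 1.62e-05 to 0.00357). Klra8, Klra4 and Klrg1 passed the filter on low counts through the NK side, which had been chosen by NK receptor genes. Klra6 passed it through the Cd8 side. The direction of these genes, and with it the count of killer receptors, is a description only.

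T cell genes were higher, on a comparison whose other side had been chosen to lack Cd3. Of 20 receptor and signalling genes 18 were higher and 0 lower. Themis, Cd5, Cd6 and Bcl11b had 0, 0, 3 and 14 UMIs in NK cells and passed the filter through the Cd8 side. This count is therefore a description only. Themis had 394, 587 and 754 CPM in Cd8 T cells and 0 UMIs in NK cells (at least 567-fold higher in the members), and Cd5 had 98.0, 117 and 142 CPM and 0 UMIs (at least 119-fold higher). Bcl11b, a factor of T cell commitment, had 168, 204 and 320.2 CPM against 0, 1.93 and 13.2 CPM. Naive and homing genes were higher in 8 of 13 cases and lower in 0. Dapl1 had 0 UMIs in NK cells (at least 83.5-fold higher in the members), Il7r had a log2 fold change of 2.70 (SE 0.229, adjusted p = 1.14e-06) and Ccr7 of 3.36 (SE 0.501, adjusted p = 0.00334). Ccr7 was found in 15 of 264 NK cells. Dapl1 and Ccr7 passed the filter through the Cd8 side, so their direction, and the count of 8, is a description only. Of 12 interferon response genes 6 were higher, with Igtp at 1.47 (SE 0.240, adjusted p = 0.000257). Of these calls, those of Gbp2, Gbp4 and Ifi27l2a were lost without library 4 (adjusted p = 0.103, 0.0569 and 0.0801) and without at least 1 other library, those of Gbp2 and Gbp4 in DESeq2, and those of Gbp2 and Bst2 without the block. B lineage genes were lower in 3 of 6 cases, and the NK population held 146 to 946 CPM of Ebf1 and 30.8 to 318 CPM of Vpreb3, genes of early B cells, and the neutrophil genes summed to 20467 CPM there. Vpreb3 and Ebf1 had 11 and 78 UMIs in the members and passed the filter through the NK side. Their direction, and with it the count of 3, is a description only. Without cells holding RNA of other lineages 1212 genes were called. Of 100 calls among list genes, 85 were kept without each library in turn.

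**Figure D4:**
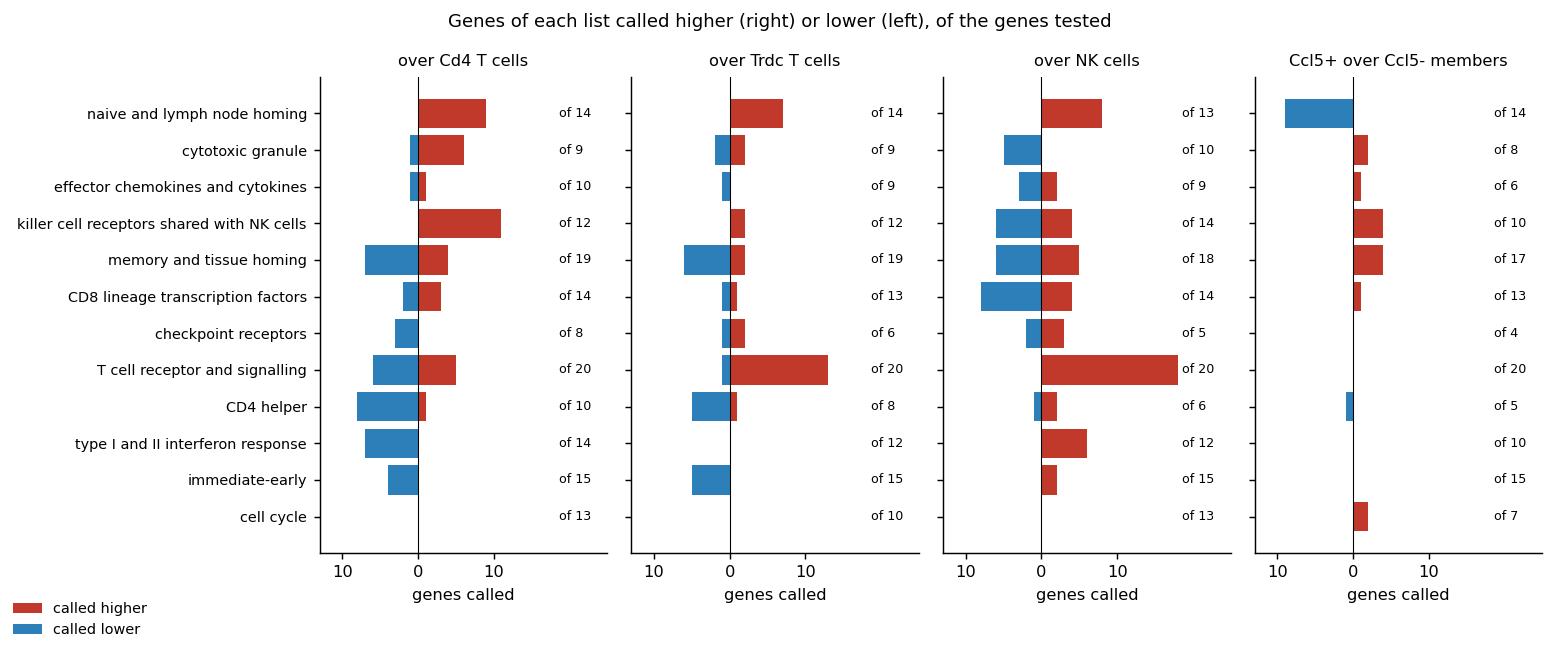
Bars give the number of genes of each list that were called higher (right) or lower (left) in Cd8 T cells over each of 3 populations, and in members with Ccl5 over those without, with the number of genes tested at the right. Killer receptors are higher in 11 of 12 cases over Cd4 T cells, a description only, where 8.29% of all genes tested were higher. Naive genes are lower in 9 of 14 cases in members with Ccl5, where 1.2% of all genes tested were lower.

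The Cd8 T cells varied among themselves along Ccl5. The 219 cells with a Ccl5 UMI had a median of 11723 UMIs and the 78 without one 9048, so that detection moved with depth. The positive share of a library was 62.7%, 72.7% and 92.7%, and library 6 was left out of the test between the sides because it held 4 negative cells. Ccr7 was found in 30.6% of the positive and 73.1% of the negative cells, Cd44 in 82.2% and 30.8%, Ly6c2 in 84.5% and 43.6%, and Xcl1 in 66.2% and 5.13%. In neutrophil-type cells Ccr7 and Xcl1 were found in 2.15% and 0.183%, and Ly6c2 and Cd44, which neutrophils express, in 77.2% and 98.7%.

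Between the sides 4257 genes were tested over 5 libraries and 100 were called (2.35%), with 49 higher (1.15%) and 51 lower (1.2%) in the positive cells. Naive and homing genes were lower in 9 of 14 cases and higher in 0, with a median log2 fold change of -1.38 against 0.00 for all genes. Igfbp4 had 0, 3.61 and 24.3 CPM in positive and 52.9, 104 and 173 CPM in negative cells, a log2 fold change of -4.01 (SE 0.532, adjusted p = 0.00157). It had 20 UMIs in the positive cells against 77 and passed the filter on low counts through the negative side. The direction of Igfbp4, and its part in the count of 9, is a description only. Lef1 had 193, 292 and 423 CPM against 583, 823 and 1556 CPM, a log2 fold change of -1.56 (SE 0.217, adjusted p = 0.00214). In both genes the 5 libraries of positive cells were below the 5 of negative cells, which was so in either direction for 3.52% of the genes tested. Il7r was lower at -1.44 (SE 0.251, adjusted p = 0.0081) and Ccr7 at -1.46 (SE 0.339, adjusted p = 0.0415). Dapl1, Actn1, S1pr1, Satb1 and Foxp1 had log2 fold changes from -1.91 to -0.59.

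Killer receptors were higher in 4 of 10 cases. Klra7 and Klre1 had 0 UMIs in the negative cells and Klrc2, Crtam, Fasl, Cxcr3 and Rrm2 had 9, 11, 11, 8 and 8, so these genes passed the filter on low counts through the positive side and their direction, and that count, is a description only. Klra7 had 151, 197 and 229 CPM in positive cells and 0 UMIs in negative cells of any library, at least 56.4-fold higher over all cells of both sides against a floor of 3 UMIs in the negative cells. Klre1 had 115, 127 and 283 CPM and 0 UMIs, at least 52.2-fold higher. Klrc2 had a log2 fold change of 3.31 and Crtam of 2.45. Fas ligand (Fasl), a death receptor ligand of killer cells, had 66.1, 99.7 and 157 CPM against 0, 11.5 and 47.0 CPM, a log2 fold change of 2.87. Of the memory genes 4 of 17 were higher: Cxcr3, a receptor for interferon-induced chemokines, at 2.74, Ly6c2 at 1.78 (SE 0.217, adjusted p = 0.000856), Il2rb at 1.50 and Itgb1 at 1.70. Eomes was higher at 1.81 (SE 0.395, adjusted p = 0.0282), and of 7 cell cycle genes Stmn1 (1.84) and Rrm2 (2.09) were higher. Nkg7 did not pass, with 716, 827 and 1169 CPM against 203, 309.9 and 1101 CPM (adjusted p = 0.128), nor did Gzmb (adjusted p = 0.379) or Cd44, with a log2 fold change of 0.67 (SE 0.328, adjusted p = 0.377). Of 20 receptor and signalling, 10 interferon response and 15 immediate-early genes edgeR and DESeq2 called 0 in each list, while 2, 2 and 3 were lower at an unadjusted p under 0.05.

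Outside the lists, Lig1 (DNA ligase I), Hells (a helicase) and Rad51b (a recombination protein) had log2 fold changes of 3.90, 2.95 and 2.77, and Samd3, Gas7 and Ctla2b of 3.40, 2.97 and 2.82. These 6 genes had at most 8 UMIs in the negative cells, so their direction too is a description only. Lower in positive cells were Auts2, St8sia1, Ifngr2, Igf1r, Elovl6, Inadl, Trib2, Ramp1 and Inpp4b, from -3.10 to -1.87. Auts2, St8sia1, Ifngr2, Igf1r, Elovl6, Trib2 and Ramp1 had from 34 to 88 UMIs in the positive cells. The negative side carried them past the filter on low counts, so their direction is a description only. Of these 15 genes Lig1, Ctla2b, St8sia1, Igf1r, Elovl6 and Inpp4b kept their call without each library in turn, while Samd3 and Auts2 lost it without library 2, Rad51b, Gas7 and Ifngr2 without library 3, and Hells, Inadl, Trib2 and Ramp1 without any of 2 to 4 libraries. The number of calls depended on the libraries, as 26 genes were called without library 2, 38 without library 3 and 62 without library 5. Of the 24 calls among list genes 6 were kept without each library in turn, namely those of Klra7, Klre1, Klrc2, Ly6c2, Lef1 and Igfbp4, but that of Ly6c2 was lost without cells holding RNA of other lineages (adjusted p = 0.163). The calls of Il7r and Fasl were lost without library 2, those of Crtam, Cxcr3, Il2rb, Actn1, Dapl1 and Stmn1 without library 2 or 3, and those of the other 10 without any of 3 or 4 libraries. With both sides freed of cells holding RNA of other lineages 204 genes were called, 85 of them among the 100. With each cell thinned to 2000 UMIs 713 genes could be tested and 72 were called, 27 of them among the 100.

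**Figure D5:**
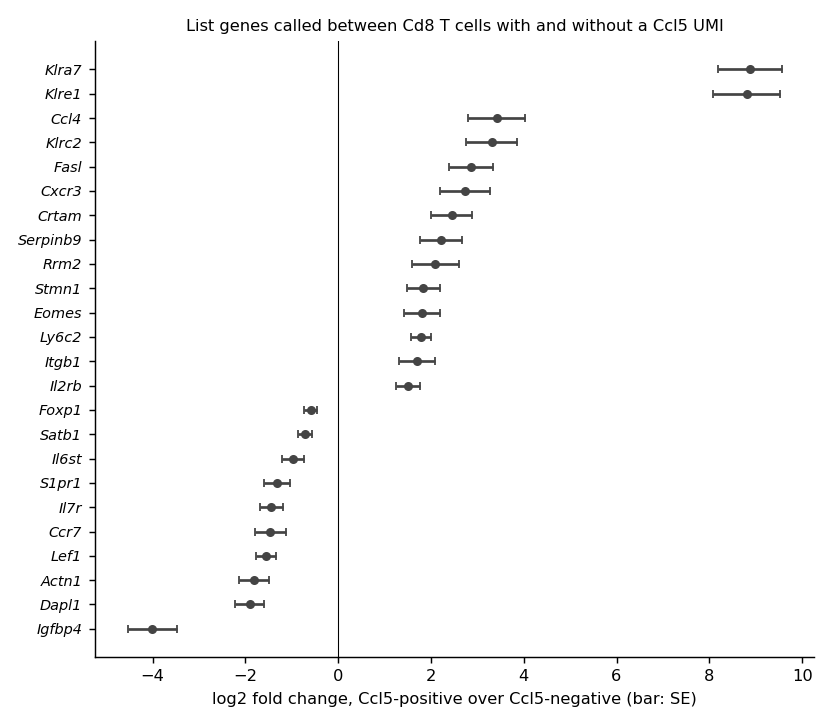
Points give the log2 fold change of the 24 list genes called between Cd8 T cells with and without a Ccl5 UMI, from sums over 5 libraries, and bars give the standard error. Klra7 and Klre1 have 0 UMIs in the negative cells, so their fitted values depend on the prior count and are no measure of size.

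The peptide given to the mice acts in a pathway that runs from adiponectin receptors on B cells through cadherin-15 on endothelium to sphingosine 1-phosphate, and 11 genes of it were read in the members. Cdh15 (cadherin-15) and Spns2, the exporter of sphingosine 1-phosphate, had 0 UMIs in 297 cells, which allows a share of cells with a UMI of up to 1.01%. Ywhaz, the gene of 14-3-3 zeta, had 279.8, 321 and 353 CPM, Adipor1 42.5, 51.6 and 56.3 CPM and Adipor2 56.3, 73.1 and 84.2 CPM over the libraries. S1pr1 had 70.2, 102 and 188 CPM, and its lowest value was in library 6. Of 7 of these genes tested against Cd4 T cells, Adipor2 was lower at -0.82 (SE 0.166, adjusted p = 0.00344) and 0 were higher. Against NK cells S1pr1 was higher at 2.49 (SE 0.229, adjusted p = 6.37e-07) and Adipor1 lower at -0.74 (SE 0.161, adjusted p = 0.00323), a call that was lost without cells holding RNA of other lineages (adjusted p = 0.0714). In members with Ccl5, S1pr1 was lower than in those without, at -1.31 (SE 0.275, adjusted p = 0.0214), a call that was lost without library 2 (adjusted p = 0.102), library 3 (adjusted p = 0.157) or library 5 (adjusted p = 0.0904).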

How the data were processed

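Single-cell 3′ libraries of CD45+ synovial cells from 6 samples (2 PBS, 4 PEPITEM) were used. The UMI counts per gene and cell were deposited by the authors as 1 table of 20394 genes and 32953 cells, made per the labels with Cell Ranger 7. The study's methods name SoupX for free RNA, DoubletFinder for doublets and Seurat for filters on mitochondrial share and gene number, and the table holds as many cells as the study gives after its quality control. Whether free RNA had been subtracted from the deposited counts is not stated in the sources used here, and if so low levels may be understated. Doublets were not called again. Library totals were 47273569 to 123367661 UMIs.

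Cells were picked by the rules given above. UMIs were summed per library and population, filtered with filterByExpr, scaled by TMM and tested with edgeR 4.0.16 in R 4.3.3, with the library as a block and Benjamini-Hochberg adjustment at 0.05. Sides of under 10 cells were left out. In each direction the 12 genes with the greatest fold changes were named if adjusted p was under 0.05, all libraries moved alike and the higher side reached 50 CPM, leaving out rule, ribosomal, mitochondrial and unnamed genes. Genes of the lists and the 15 most abundant genes were named beside them. Members and lists were chosen with earlier results of these data known. On simulated counts with known changes, 4-fold changes were recovered in 100% and 2-fold ones in 81.2% of genes for the comparison with Cd4 T cells. For the split by Ccl5, 2-fold changes were recovered in 54.2%. The simulation gave all genes the same dispersion and the same spread between libraries. Real genes varied more widely, so these shares do not give the recovery in the real counts, and a gene without a call is not shown to be unchanged. Intervals and floors cover counting error only. Alternatives were DESeq2 1.42.0, no filter, no block, stricter members, cells without other-lineage RNA, thinning, and leaving out each library. Some genes of the lists entered the counts but are not reported here by name.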

Additional observations from a re-analysis of the deposited data

How the results depend on the processing

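No paired analysis was possible because the replicate numbers of the PBS and PEPITEM samples could not be linked to library numbers. All fits instead paired 2 populations of a library by a block. Without the block the counts of calls were 870 over Cd4 T cells, 485 over Trdc T cells, 966 over NK cells and 66 for the split by Ccl5. With no filter on low counts they were 1027 over Trdc T cells, 1797 over NK cells and 294 for the split. Thinned to 2000 UMIs per cell they were 396 over Cd4, 324 over Trdc T cells and 467 over NK cells, where fewer UMIs enter. Without cells holding RNA of other lineages the split gave 204. DESeq2 called 743, 456, 827 and 102 genes in the order above. Leaving out each library gave 736 to 1023, 446 to 636, 902 to 1110 and 26 to 115. The share of Cd8 T cells was 0.750% with at least 2 CD8 UMIs, 1.05% as the median over libraries and 0.848% to 1.04% without each library, highest without library 5. The share with Ccl5 was 65.5% after thinning and 69.4% to 76.5% without each library. Among named and list genes called in the main comparisons, and in those fits that tested them, none changed direction, 3558 values kept their call and 371 lost it. Genes without a call were not followed. The causes were not tested. Library 6 entered no test of the split, and genes under about 1 UMI per cell, such as Prf1 and Gzmk, are read from few molecules.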

Other observations

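Klra7 and Ikzf2 (Helios) transcripts were found together within single Cd8 T cells. Of the 78 members with a Klra7 UMI, 75 or 96.2% also held Ikzf2, against 29.7% of the members without Klra7. Ikzf2 was found in 55.3% of members with Ccl5 and 24.4% of those without, Eomes in 51.1% and 15.4%, and Gzmb in 39.3% and 8.97%. These are shares over cells of 6 libraries, detection depends on depth, and the differences were not tested.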
